A study of Mus musculus with 28 samples.

Results

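Lung metastases (LungMets) of the mouse mammary carcinoma line JygMC(A) were compared with the normal mammary gland (NMG), the tissue from which such a carcinoma derives. The comparison took its samples from the tissue labels and used 9 LungMets and 3 NMG arrays of the 28 in the series. All animals were Balb/C nude mice, per the study's methods female and athymic, so that they lack thymus-derived T cells. The tumor line, which in those methods carries a GFP and luciferase reporter, was injected at 50000 cells per gland into the fourth mammary gland. Per the methods the primary tumors were removed by day 30, and LungMets were taken at day 50. The methods give the mice used as 8 weeks old, without naming the step. NMG and normal lung parenchyma (NL, 3 arrays) came from mice of 6 to 8 weeks without a tumor. If 8 weeks is the age at injection, LungMets mice were older when sampled, and age and group cannot be told apart. Primary tumors taken at day 30 (PT, 11 arrays) entered the fit as a further group, and the same cells in monolayer and as 3D spheres (1 array each) are given as values only. LungMets and PT both descend from 1 cell line. The animal behind each array is not given in the labels, and the methods mention 1 or 2 fragments from each of 8 mice, so p-values measure the spread between samples.

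The mammary gland of a virgin mouse is a thin ductal tree of hormone-responsive luminal cells and contractile myoepithelial cells inside a fat pad that also holds a lymph node in the inguinal gland. A lung metastasis removed as tissue brings along alveolar and airway epithelium, which makes surfactant and secretory proteins, and a dense capillary bed. NL therefore served to set lung genes apart. Whole tissue was measured, so fewer cells of a type and less RNA per cell cannot be told apart.

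Some arrays stood apart from their group. The array labelled LungMets replicate 9 had a mean of 6.11 log2 units over 22 lung epithelium genes, against 9.25 to 10.61 in the other 8 LungMets arrays and 11.81 to 11.85 in NL. The array labelled PT replicate 5 had 9.70 on the same list, and its nearest array of all was LungMets replicate 5, at a root mean square difference of 0.236 log2 units, the smallest of any pair. Both arrays thus went against their labels on lung genes, and the main counts are also given without them. Replicate 1 of NMG carried lung transcripts, with the club cell secretoglobin *Scgb1a1* at 11.51 against 7.15 and 3.29 in replicates 2 and 3. Replicate 7 of LungMets was the lowest of its group on the mitosis genes. The labels give each array a date without saying of what. The LungMets arrays fall on 2 of the 4 dates, and NMG and NL have a date each, so date and tissue cannot be told apart for NMG. As a reading of absent transcripts, 3 Y-linked genes averaged between 2.86 and 3.23 log2 units on every tissue array.

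Of 18193 genes, 2422 were called between LungMets and NMG, that is, they had an adjusted p under 0.05 in limma and a difference of over 1 log2 unit (2-fold). Of these, 975 were higher in LungMets (5.36% of genes tested) and 1447 were lower (7.95%). Counts of called list members below are to be read beside these shares. The median difference of all genes was 0.10 log2 units. How many of all genes separate the LungMets from the NMG arrays without overlap was not counted. Where a gene below is said not to overlap, this describes that gene only. Without LungMets replicate 9 the calls were 1039 higher and 1459 lower, and without both arrays that went against their labels they were 1056 and 1464. Without NMG replicate 3, the array lowest in mitosis genes, they were 765 and 1307.

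A gene was counted as high in NL when the NL mean exceeded the NMG mean by over 1 log2 unit, which held for 1632 genes or 8.97% of those tested. NMG enters both differences, so the classes are a description and were not tested. Genes high in NL made up 405 of the 975 higher calls (41.5%) and 21 of the 1447 lower calls (1.45%). Setting them apart left 570 genes that rose, 3.44% of the 16561 genes not high in NL. With only the 4 LungMets arrays of the first date this number was 621, with the 5 of the second date 506, and without NMG replicate 3 it was 409. LungMets were called higher than both NMG and NL for 454 genes (2.50% of genes tested), of which 446 were not high in NL, and lower than both for 454 genes (2.50%). Genes that fell were often low in lung too. The NL mean was over 1 log2 unit below the NMG mean for 801 of the genes that fell (55.4%) and for 1398 of all genes (7.68%).

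**Figure D1:**
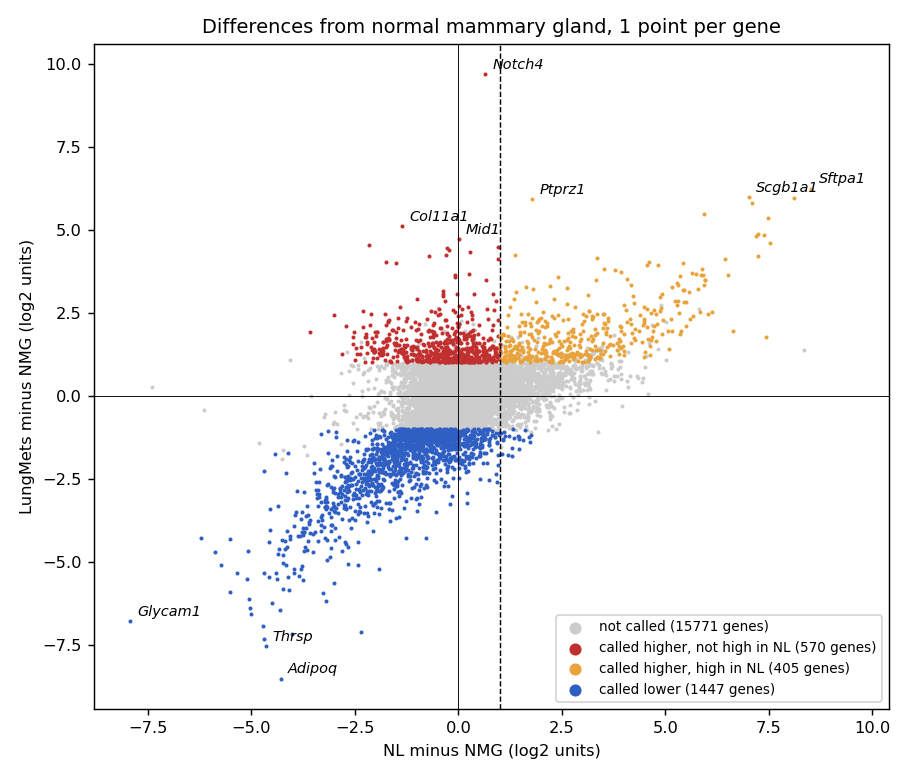
Difference between NL and NMG (horizontal, log2 units) against the difference between LungMets and NMG (vertical, log2 units), with 1 point per gene for 18193 genes. The dashed line marks 1 log2 unit. Red points left of it are the 570 genes that rose and were not high in NL, orange points right of it the 405 that rose and were high in NL, and blue points the 1447 that fell. Both axes share the NMG arrays.

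The cultured cells gave a further description of the 3 groups of genes. In the JygMC(A) monolayer, 475 of the 570 rising genes not high in NL (83.3%) read above that array's median gene value, against 163 of the 405 rising genes high in NL (40.2%) and 478 of the 1447 genes that fell (33%). In the 3D spheres these shares were 70.2%, 40.7% and 34.8%. Each culture condition has 1 array, and the arrays entered no test.

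*Notch4*, a receptor of the Notch family known as the int3 insertion site of mouse mammary tumor virus, showed the largest rise of all genes. It read 3.74, 3.18 and 4.33 log2 units in the 3 NMG arrays, and in LungMets its lowest, median and highest values were 13.11, 13.55 and 13.69. The difference was 9.68 ± 0.17 log2 units (SE, n = 9 and 3, adjusted p = 9.13e-24 in limma). All 9 LungMets arrays lay far above every NMG array, and their own spread was small (SD 0.21). NL averaged 4.40, PT 13.42, the monolayer 13.30 and the spheres 13.16. The array holds 3 probe sets for this gene, and the others rose by 4.17 and 1.99 log2 units, with 7.08 and 4.61 in the monolayer. On the former, NMG averaged 6.18, NL 8.75 and LungMets 10.35, so *Notch4* would count as high in NL there. On the latter, NMG averaged 3.89, NL 4.46 and LungMets 5.88.

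Collagen genes of cartilage made up 3 of the 10 largest rises among genes not high in NL. *Col11a1*, a chain of fibrillar type XI collagen, read 4.99, 4.68 and 3.67 in NMG and 7.20 to 11.41 in LungMets, a rise of 5.11 ± 0.58 log2 units (SE, adjusted p = 1.51e-07, limma). *Col9a1*, a chain of type IX collagen, rose by 4.55 ± 0.87, and *Col2a1*, the main fibrillar collagen of cartilage, by 4.39 ± 0.88. The arrays of both normal tissues lay below every LungMets array for *Col11a1* and *Col2a1*. *Col9a1* overlapped, since LungMets replicate 7 at 6.67 was under NMG replicate 1 at 7.03.

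The other genes among the 10 largest rises not high in NL were of several kinds. *Mid1*, a ubiquitin ligase that binds microtubules, read 2.81, 2.54 and 2.58 in NMG and 6.41 to 8.00 in LungMets, and *Foxd1*, a forkhead transcription factor, rose from 3.34 to 7.54 on average. *Wfdc3*, of the whey acidic protein family of protease inhibitors, spread from 5.66 to 10.25 in LungMets against 3.81 to 4.16 in NMG. The unnamed transcript *BC006965* rose by 4.45 and *Xaf1*, an interferon-inducible gene of the apoptosis machinery, by 4.32 log2 units. These calls rest on 1 probe set each for *Mid1*, *BC006965*, *Wfdc3* and *Xaf1*. Of the other probe sets, the second of *Xaf1* averaged 8.37 in NMG and 7.87 in LungMets, and the 2 others of *BC006965* were lower in LungMets by 0.66 and 1.93 units.

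*Muc4*, a membrane mucin of secretory epithelia, had the largest spread of these genes in LungMets (SD 2.49). It read 2.97, 2.91 and 2.74 in NMG, near the Y-linked genes. LungMets replicates 1 to 6 lay between 6.20 and 10.46, and replicates 7 to 9 between 3.96 and 4.94. The rise of 4.47 ± 1.49 log2 units (SE, adjusted p = 0.0185, limma) was no longer called without any 1 of the NMG arrays or with the second date alone. The monolayer read 3.43. On the probe set used, NL averaged 3.83 and NMG 2.87, so *Muc4* fell just short of the limit for high in NL. A further probe set averaged 3.37 in NMG, 4.86 in NL and 4.63 in LungMets, so there LungMets did not exceed NL. The remaining probe set differed by -0.03 log2 units between LungMets and NMG.

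**Figure D2:**
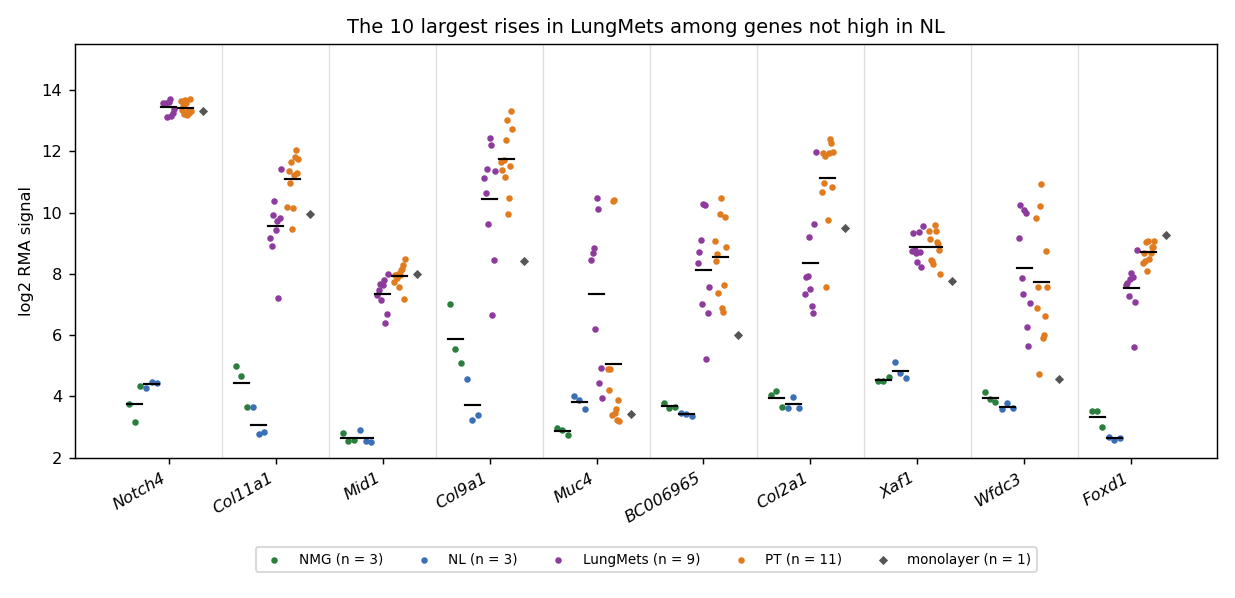
Log2 RMA signal (vertical) of the 10 genes with the largest rise in LungMets among called genes not high in NL, with 1 point per array and the group mean as a line. The NMG (3 arrays) and NL (3) points lie below the LungMets mean for every gene, *Notch4* is tight near 13.43 in LungMets (9) and PT (11), and *Muc4* spreads from 3.96 to 10.46 in LungMets. The diamond is the monolayer array.

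Ranked by the excess over the higher of both normal tissues, *Ptprz1* and *Cnmd* joined these genes. *Ptprz1*, a receptor phosphatase of glia and neural precursors, was one of 8 genes that were high in NL and still higher in LungMets. It averaged 2.81 in NMG, 4.59 in NL and 8.73 in LungMets (rise of 5.92 ± 0.92 over NMG, SE, adjusted p = 1.60e-05, limma), and 2.93 in the monolayer. *Cnmd*, which encodes the cartilage glycoprotein chondromodulin, ranged from 5.157 to 11.77 in LungMets and read 2.74 on the monolayer array. Its lowest LungMets value and its highest NMG value, both 5.157, coincide at this precision. Its call (rise of 4.04 ± 1.37, adjusted p = 0.0207) was lost with the second date alone and without NMG replicate 3. The others high in NL but called above it were *Esm1*, *Garem1*, *Gpnmb*, *Kit*, *Ngef*, *Saa3* and *Six4*.

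The cartilage genes were then read as a fixed list of 16. Of these 9 rose and none fell, with a median difference of 1.88 log2 units against 0.10 over all genes, and 8 were also above NL. Beside the collagens named above, *Col9a2* rose by 2.45, *Col9a3* by 2.11 and *Col11a2* by 1.65 log2 units, and *Sox9*, the transcription factor that drives cartilage collagen genes, rose by 2.43 ± 0.22 (SE, adjusted p = 2.77e-09, limma). *Cnmd* and *Chad* were the other called members, and *Chad* was high in NL. The core proteoglycan of cartilage did not follow. *Acan* averaged 4.22 in NMG and 4.27 in LungMets (adjusted p = 0.810), *Matn1* differed by 0.01 and *Comp* by 0.40, and *Sox5* and *Sox6*, the partners of *Sox9*, by 0.36 and 0.15, none of them called. The median for NL over NMG was -0.19 and that for PT over NMG 3.12.

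Genes that drive cell division were then read in 2 lists. The mitosis list rose in 22 of 24 measured members and fell in none, with a median difference of 1.47 log2 units, and all 22 were above NL too, where the median was -2.02 against NMG. *Kif20a*, a kinesin of cytokinesis, read 5.41, 6.82 and 4.38 in NMG and 6.83, 8.13 and 8.92 at the lowest, median and highest LungMets array (rise of 2.47 ± 0.37, SE, adjusted p = 8.97e-06, limma). *Bub1*, a kinase of the spindle checkpoint, rose by 2.33 log2 units, while its second probe set averaged 3.95 in NMG and 3.73 in LungMets. *Anln*, an actin-binding protein of the cleavage furrow, rose by 2.31, and *Cdc20*, an activator of the anaphase-promoting complex, by 2.29 log2 units. The members not called were *Kif23* (0.95, adjusted p = 0.00704) and the proliferation antigen *Mki67* (0.92, adjusted p = 0.0130), which passed the test but not the fold threshold.

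The size of this rise depends on which gland is the reference. The mean of the list was 6.98, 8.18 and 6.01 on the 3 NMG arrays, a wider spread (SD 1.09) than in LungMets (8.66 ± 0.47, SD, n = 9). NMG replicate 2 lay above LungMets replicate 7 at 7.55, and the remaining 8 LungMets arrays, from 8.53 to 9.19, lay above every NMG array. Without NMG replicate 3 only 9 of the 24 members were called. PT had a mean of 9.04 and the monolayer 9.5.

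Mitosis genes are known to share a promoter arrangement in which CCAAT boxes, bound by the factor NF-Y, lie upstream of a cell cycle homology region (CHR), bound by the DREAM and B-Myb complexes. The 3 promoters shown belong to the called members with the largest rise among those that held both motifs within the 200 bases before the transcription start, and they are shown because their genes rose together. Each line gives these 200 bases from RefSeq on build GRCm38.p6, 5′ to 3′ on the gene's own strand. Capitals mark CCAAT (or its complement ATTGG) and the CHR letters TTTGAA or TTCGAA, searched on both strands.
*Cdc20*, chr4:118437344-118437543, minus strand: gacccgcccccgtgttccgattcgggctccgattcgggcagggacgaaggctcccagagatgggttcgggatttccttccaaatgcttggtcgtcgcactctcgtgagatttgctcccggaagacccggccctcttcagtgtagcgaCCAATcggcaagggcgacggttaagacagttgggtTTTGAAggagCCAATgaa
*Cdk1*, chr10:69352913-69353112, minus strand: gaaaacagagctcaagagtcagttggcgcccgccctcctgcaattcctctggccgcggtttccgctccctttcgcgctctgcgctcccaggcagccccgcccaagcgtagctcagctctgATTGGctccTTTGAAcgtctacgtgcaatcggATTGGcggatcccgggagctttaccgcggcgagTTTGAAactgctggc
*Ccnb2*, chr9:70421555-70421754, minus strand: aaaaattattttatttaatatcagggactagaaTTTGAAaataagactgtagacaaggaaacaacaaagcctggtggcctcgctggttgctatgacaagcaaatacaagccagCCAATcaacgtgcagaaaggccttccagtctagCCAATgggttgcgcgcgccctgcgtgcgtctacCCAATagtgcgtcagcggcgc

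The marked letters do not all stand in the order just described. In *Ccnb2* the CHR letters lie upstream of all 3 CCAAT boxes. In *Cdc20* 1 of 2 CCAAT boxes lies downstream of the CHR letters, and in *Cdk1* 1 of 2 lies between both CHR matches. *Cdk1*, the kinase that drives entry into mitosis, rose by 2.06 and *Ccnb2*, one of its B-type cyclins, by 1.47 log2 units. In windows of 300 bases around the start, 17 of the 21 promoters found for 20 list members held CCAAT (81.0%) and as many held a CHR. Both stood together in 16 of them (76.2%), against 5.97% of 18109 promoters of genes on the arrays and 7.52% of all 32851 promoters in the reference table. Among all promoters of that table, CCAAT was held by 37.4% and a CHR by 19.2%, counting those with both. Among 20 promoters of the DNA replication list, 20.0% held both. These are matches of letters, and a match is not a measured binding site.

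Of 22 DNA replication genes, 6 rose and none fell, beside 5.36% called higher over all genes. The median was 0.90 log2 units, and all 6 were above NL as well. They were *Rfc3* of the clamp loader (1.47 ± 0.19, SE, adjusted p = 1.37e-06, limma), *Gins1* of the replicative helicase (1.46), the initiation factors *Mcm10* (1.35), *Mcm6* (1.32), *Cdc6* (1.26) and *Cdc45* (1.02). *Pcna*, the sliding clamp, differed by 0.48 and *Mcm4* by 0.38, both without a call. The count was 11 without LungMets replicate 7, 16 without NMG replicate 2 and 3 without NMG replicate 3. *Gins1* and *Mcm10* lost their calls with the mean of their probe sets.

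Of 15 genes of ribosome assembly 4 rose and none fell, beside 5.36% called higher over all genes. They were *Dkc1* (1.24 ± 0.23, SE, adjusted p = 0.000112, limma), *Nhp2* and *Gar1* of the H/ACA particles that modify ribosomal RNA, and *Nolc1* of the nucleolus. The median of all 15 was 0.88 log2 units, and *Myc*, a regulator of such genes, averaged 8.78 in NMG and 8.32 in LungMets without a call. The count was 7 without LungMets replicate 7 and 8 without NMG replicate 2, and *Gar1* lost its call in 5 alternatives.

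Metabolic lists held calls in both directions, beside 5.36% called higher and 7.95% called lower over all genes. Of 12 genes of serine, one-carbon and amino acid supply, *Mthfd2* (1.43), *Aldh18a1* (1.38) and *Shmt2* (1.08 log2 units) rose. These encode mitochondrial enzymes of folate and proline metabolism. *Aldh18a1* lost its call with the mean of its probe sets. *Slc1a5*, a neutral amino acid transporter that carries glutamine, read 9.45, 9.34 and 10.36 in NMG and 5.84 to 7.29 in LungMets, and so fell by 3.16 ± 0.26 log2 units (SE, adjusted p = 5.50e-10, limma), and *Slc38a1*, a further such transporter, fell by 1.16. Both lay below every NMG array on all 9 LungMets arrays. *Phgdh*, the first enzyme of serine synthesis, averaged 9.47 in NMG and 8.82 in LungMets (adjusted p = 0.154).

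Of 16 genes of glycolysis and hypoxia 2 rose and 2 fell, beside the 5.36% and 7.95% called over all genes. *Car9*, a carbonic anhydrase induced at low oxygen, rose by 1.58 ± 0.33 and the oxygen sensor *Egln3* by 1.28 log2 units. *Bnip3*, a mitochondrial receptor of the same response, fell by 1.29 and the glycolytic enzyme *Aldoa* by 1.01. Of these 4, *Car9* was called under each alternative that tested it. *Aldoa* lost its call in 8 alternatives, among them both other normalizations, while *Egln3* and *Bnip3* lost theirs without NMG replicate 3. *Egln3* also lost its call with the second date alone. The median was 0.27 log2 units, and *Ldha* and *Hk2* were 0.33 and 0.66 lower without a call.

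**Figure D3:**
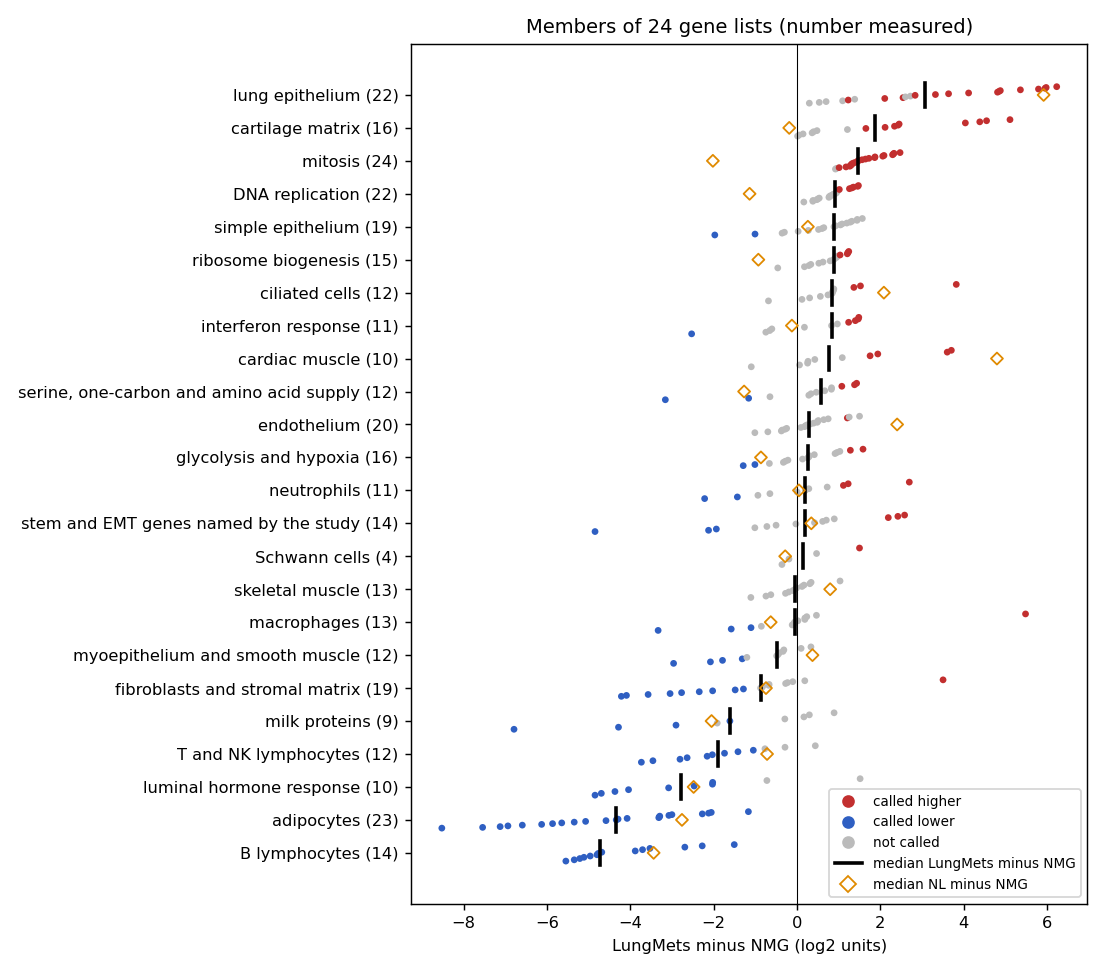
Difference between LungMets and NMG (horizontal, log2 units) for each measured member of 24 gene lists, with the number measured in parentheses. Red points rose, blue points fell and grey points were not called, black bars are list medians for LungMets minus NMG, and open diamonds are medians for NL minus NMG. Lung epithelium (median 3.08) stands at the top, B lymphocytes (-4.73) and adipocytes (-4.34) at the bottom, and the diamond for mitosis (-2.02) lies opposite to its bar (1.47).

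Hormone-responsive luminal genes had the lowest median of the gland's 3 epithelial lists. Of 10 members 8 fell and none rose, with a median of -2.77 log2 units. *Gata3*, the transcription factor that maintains luminal cells, read 9.95, 8.87 and 8.88 in NMG and 3.94, 4.35 and 5.23 at the lowest, median and highest LungMets array. It fell by 4.85 ± 0.27 (SE, adjusted p = 3.28e-13, limma), the estrogen receptor *Esr1* by 4.70, the progesterone receptor *Pgr* by 4.37 and their coregulator *Cited1* by 4.04 log2 units, each with all 9 LungMets arrays below every NMG array. *Stat5a*, *Tnfsf11*, *Wnt4* and *Foxa1* made up the 8. *Elf5*, a factor of luminal progenitors, was not among them and averaged 8.63 in NMG and 10.14 in LungMets (adjusted p = 0.314). NL had a median of -2.48 on this list, and PT -2.82.

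Most genes shared by simple epithelia were not called. Of 19 members none rose and 2 fell, a share near the 7.95% called lower over all genes. They were the tight junction gene *Cldn4* by 1.97 ± 0.21 log2 units (SE, adjusted p = 4.00e-08, limma) and the keratin *Krt18* by 1.01, and the latter lost its call in 12 of 24 alternatives. *Epcam* averaged 10.59 ± 0.49 (SD, n = 3) in NMG and 11.23 ± 1.30 (SD, n = 9) in LungMets, *Cdh1* 9.29 and 10.60, and *Krt8* 11.18 and 10.83. The median was 0.89 log2 units, the list mean spread from 7.60 to 9.69 over the LungMets arrays, and 3 members were higher at an unadjusted p under 0.05 in limma. The lowest array was replicate 9, without which 2 members rose and 1 fell. The monolayer read 5.62 for *Epcam* and 4.01 for *Cdh1*.

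Milk protein genes varied most within NMG. *Csn1s1*, an alpha casein, read 10.61, 7.12 and 3.27 in the 3 glands and 3.59 to 4.48 in LungMets, so the groups overlapped. Its fall of 2.90 ± 0.79 and that of *Csn1s2a* were lost without NMG replicate 1. *Csn3*, the kappa casein, fell by 4.28 ± 0.75 log2 units (SE, adjusted p = 6.69e-05, limma) with every LungMets array below every NMG array. *Glycam1*, a mucin-like protein of milk and of lymph node venules, was the fourth of 9 members to fall, beside 7.95% of all genes. *Wap* averaged 4.48 and 4.64 and *Lalba* 4.35 and 4.64 in NMG and LungMets without a call.

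In the myoepithelium and smooth muscle list 4 of 12 members fell, beside 7.95% of all genes. *Trp63*, the p53 family factor of basal epithelia, fell by 2.96 ± 0.51 (SE, adjusted p = 5.31e-05, limma) and *Krt5*, a basal keratin, by 1.31 log2 units. On both genes LungMets replicate 9, at 6.37 and 7.82, lay within or above the NMG arrays and the other 8 below them. The array holds 4 probe sets for *Trp63*, and the others differed by -0.02, -0.12 and -0.65. The *Trp63* call was lost with the mean of its probe sets. *Myh11*, smooth muscle myosin, fell by 2.08 and *Cnn1*, calponin, by 1.79, and both were below NL as well. *Krt14* and *Krt17* differed by -0.43 and 0.10 log2 units without a call.

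Adipocyte genes held 5 of the 10 largest falls. All 23 measured members fell, by a median of 4.34 log2 units, and 15 of them were also below NL, where the median against NMG was -2.76. *Adipoq*, the hormone adiponectin, read 12.89, 12.98 and 13.20 in NMG, and its lowest, median and highest LungMets values were 3.24, 3.88 and 8.62. The fall was 8.52 ± 0.88 log2 units (SE, adjusted p = 3.23e-08, limma), with no overlap. *Thrsp*, a regulator of fatty acid synthesis, fell by 7.54, *Car3*, a carbonic anhydrase of fat and muscle, by 7.12, *Cidec*, a lipid droplet protein, by 6.94, and *Retn*, the hormone resistin, by 6.59. For each of these 5 genes the highest LungMets array was replicate 9.

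The weakest falls in that list were *Aqp7*, a glycerol channel, with 1.17, and the lipogenic enzymes *Scd1* and *Acly* with 2.06 and 2.12 log2 units. *Fasn*, the fatty acid synthase, averaged 12.98 in NMG, 9.68 in LungMets and 9.75 in the monolayer. Outside the list, *Cyp2e1*, a cytochrome P450, fell by 7.19, the epoxide hydrolase *Ephx2* by 6.46 and the amylase *Amy1* by 6.41 log2 units. All 3 were among the 10 largest falls and lay below NL.

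**Figure D4:**
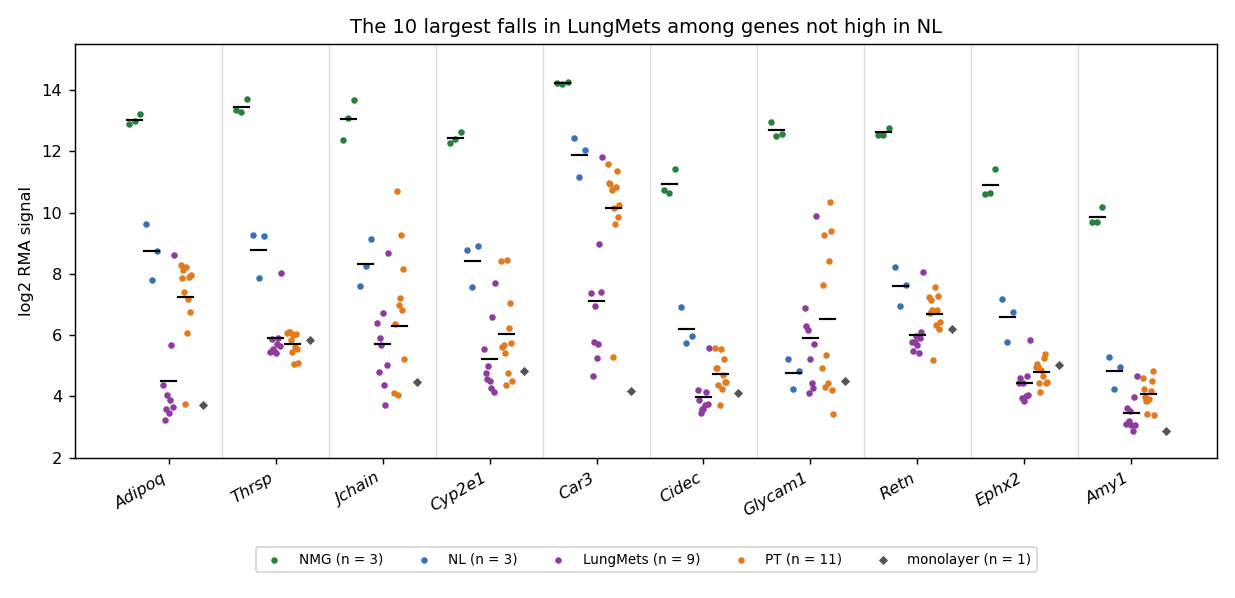
Log2 RMA signal (vertical) of the 10 genes with the largest fall in LungMets among genes not high in NL, with 1 point per array and the group mean as a line. NMG (3 arrays) lies above every LungMets array (9) for each gene, and the NL mean (3) lies between both group means except for *Glycam1*. The highest LungMets point for *Adipoq*, at 8.62, is replicate 9. PT has 11 arrays, and the diamond is the monolayer.

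Lymphocyte genes fell with them. All 14 B lymphocyte genes fell, by a median of 4.73 log2 units. *Ms4a1*, the surface antigen CD20, read 11.64, 11.60 and 11.53 in NMG and 4.74 to 9.40 in LungMets, a fall of 5.55 ± 1.17 (SE, adjusted p = 0.000536, limma), and *Fcmr*, the IgM receptor, fell by 5.34, *Pou2af1*, a B cell coactivator, by 5.21 and *Bank1*, an adaptor of the B cell receptor, by 5.11. The highest array for each was LungMets replicate 9. *Jchain*, which joins IgA and IgM, fell by 7.34 and *Glycam1* by 6.79 log2 units, both among the 10 largest falls. None of the B lymphocyte genes was called below NL, where the median against NMG was -3.44.

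Of 12 T and NK lymphocyte genes 9 fell, although the mice are athymic. *Ccl5*, a chemokine of cytotoxic lymphocytes, fell by 3.73 ± 0.54 log2 units (SE, adjusted p = 5.73e-06, limma), *Cd2* by 3.46, *Cd3g*, a chain of the T cell receptor complex, by 2.81 and *Nkg7*, of cytotoxic granules, by 2.64. *Cd3e* averaged 5.64 in NMG and 5.35 in LungMets without a call, and *Prf1* and *Gzmb* were not called either.

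Myeloid genes split. Of 13 macrophage genes, *Marco*, a scavenger receptor, fell by 3.33 ± 0.44 log2 units (SE, adjusted p = 1.68e-06, limma), *Cd163* by 1.58 and *Mrc1* by 1.10, and *Chil3*, a chitinase-like protein of alveolar macrophages that was high in NL, rose by 5.48. The general macrophage markers *Adgre1* and *Cd68* differed by 0.19 and 0.23 without a call. *Cd163* and *Mrc1* lost their calls without NMG replicate 3. Among 11 neutrophil genes, *Lcn2*, a siderophore-binding protein also made by epithelia, rose by 2.70 ± 0.97, *Mmp8* by 1.23 and *Csf3r* by 1.11, while the granule genes *Ltf* and *Ngp* fell by 2.22 and 1.43 log2 units. LungMets replicates 1 to 8 lay at 10.20 to 12.08 for *Lcn2* and replicate 9 at 8.86, next to NMG at 8.01 to 8.82. The *Lcn2* call was lost without any 1 NMG array, and with the LungMets of either date alone. The calprotectin genes *S100a8* and *S100a9* were not called.

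Of 11 interferon response genes 4 rose and 1 fell, beside 5.36% called higher and 7.95% called lower over all genes. *Ifit1* (1.48 ± 0.34, SE, adjusted p = 0.00127, limma), *Ifit3* (1.47), *Oasl2* (1.40) and *Rsad2* (1.24 log2 units) rose, the first 2 being high in NL, and *Ifi27l2a* fell by 2.53. All 9 LungMets arrays lay above every NMG array for *Ifit1*, *Ifit3* and *Oasl2*. None was called above both normal tissues.

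Stromal fibroblast genes mostly fell or were not called. Of 19 members 9 fell, beside 7.95% of all genes, with a median of -0.87 log2 units. *Lum*, a small leucine-rich proteoglycan, read 10.47, 11.04 and 11.21 in NMG and 5.15 to 10.20 in LungMets, a fall of 4.21 ± 0.80 (SE, adjusted p = 0.000180, limma), *Fap*, a fibroblast surface protease, fell by 4.09 and *Dcn*, decorin, by 3.57. The highest LungMets value for *Lum* was replicate 9. The main fibrillar collagen gene *Col1a1* averaged 9.80 and 9.13 and *Postn* 12.32 and 12.10 without a call. *Mgp*, an inhibitor of calcification abundant in lung, was the 1 member that rose, by 3.50 ± 0.34, and was high in NL.

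All 20 endothelial genes were high in NL. Against NMG 1 rose and none fell, a share near the 5.36% called higher over all genes. It was *Erg*, an endothelial transcription factor, which rose by 1.21 ± 0.36 log2 units (SE, adjusted p = 0.00907, limma). The list of 20 had a median of 0.28 for LungMets over NMG, 2.40 for NL over NMG and -1.41 for PT over NMG. *Pecam1* averaged 7.77 in NMG, 6.75 in LungMets and 10.13 in NL, and *Kdr*, the main receptor for vascular endothelial growth factor, 9.09, 8.39 and 11.30, both without a call against NMG. List means ran from 6.81 in LungMets replicate 9 to 9.24 in replicate 7, on either side of NMG at 7.66 to 7.96. The *Erg* call was lost with the mean of its probe sets and with the first date alone.

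Contractile and nerve genes were few. None of 13 skeletal muscle genes was called in limma or by the analysis of variance, and 1 was lower at an unadjusted p under 0.05. That count was 1 lower call without LungMets replicate 4, 8 or 9. Of 10 cardiac muscle genes, 9 of them high in NL, 4 rose, beside 5.36% of all genes. *Tnnt2* rose by 3.70 ± 0.94 (SE, adjusted p = 0.00279, limma), *Actc1* by 3.61, *Myl7* by 1.94 and *Myh6* by 1.75 log2 units. *Tnnt2* read 9.35 in the monolayer and 8.12 in PT, and *Myh6*, the atrial and ventricular myosin, read 2.65 and 3.14 there and 10.01 in NL. *Actc1* averaged 7.01 in PT, 7.58 in LungMets and 9.33 in NL, and read 4.94 in the monolayer. LungMets replicates 1 and 4 read 6.58 and 7.83 for *Myh6* and the other 7 arrays 2.65 to 4.69, and its call was lost in 10 alternatives. *S100b*, of glia and cartilage, was the only called member of 4 Schwann cell genes (rise of 1.5 ± 0.51, adjusted p = 0.0215, limma). Its call was lost in 4 alternatives, among them the mean of its probe sets. *Sox10* and *Mbp* were not called.

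The genes set apart as lung were led by surfactant and secretory genes. Of 22 lung epithelium genes 15 rose and none fell, with a median of 3.08 log2 units in LungMets and 5.92 in NL. *Sftpa1*, surfactant protein A, read 7.30, 4.35 and 4.26 in NMG, 13.80 to 13.88 in NL, 11.54 to 12.84 in LungMets replicates 1 to 8 and 5.53 in replicate 9, and its rise was 6.23 ± 1.40 (SE, adjusted p = 0.000922, limma). *Scgb1a1* rose by 5.98, *Scgb3a2*, a further secretoglobin of airways, by 5.95 and *Sftpc*, surfactant protein C of alveolar type 2 cells, by 5.79 log2 units. For each of these the replicate 9 value lay below the other LungMets arrays, and for *Scgb1a1* and *Sftpc* it also lay below NMG replicate 1. The call of *Scgb1a1* was lost without NMG replicate 3 and with the second date alone.

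Without LungMets replicate 9, 17 of the 22 rose. *Ager*, a receptor of alveolar type 1 cells, rose by 4.88 and *Foxa2*, a factor of airway epithelium, by 2.54, whereas *Nkx2-1*, the lung master regulator, read 4.48 in NMG, 4.78 in LungMets and 5.04 in NL and so gave little signal in lung itself. Of 12 genes of ciliated cells 3 rose, beside 5.36% called higher over all genes. These were *Dynlrb2* by 3.82 ± 0.69, *Rsph1* by 1.52 and *Ccdc39* by 1.36. *Rsph1* averaged 6.66 in LungMets and read 6.85 in the monolayer, where *Dynlrb2* and *Ccdc39* read 3.50 and 3.06. *Foxj1*, the defining factor of ciliated cells, was 0.85 higher without reaching the fold threshold. The *Ccdc39* call was lost with the mean of its probe sets. PT had a median of -0.08 against NMG on the lung epithelium list.

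**Figure D5:**
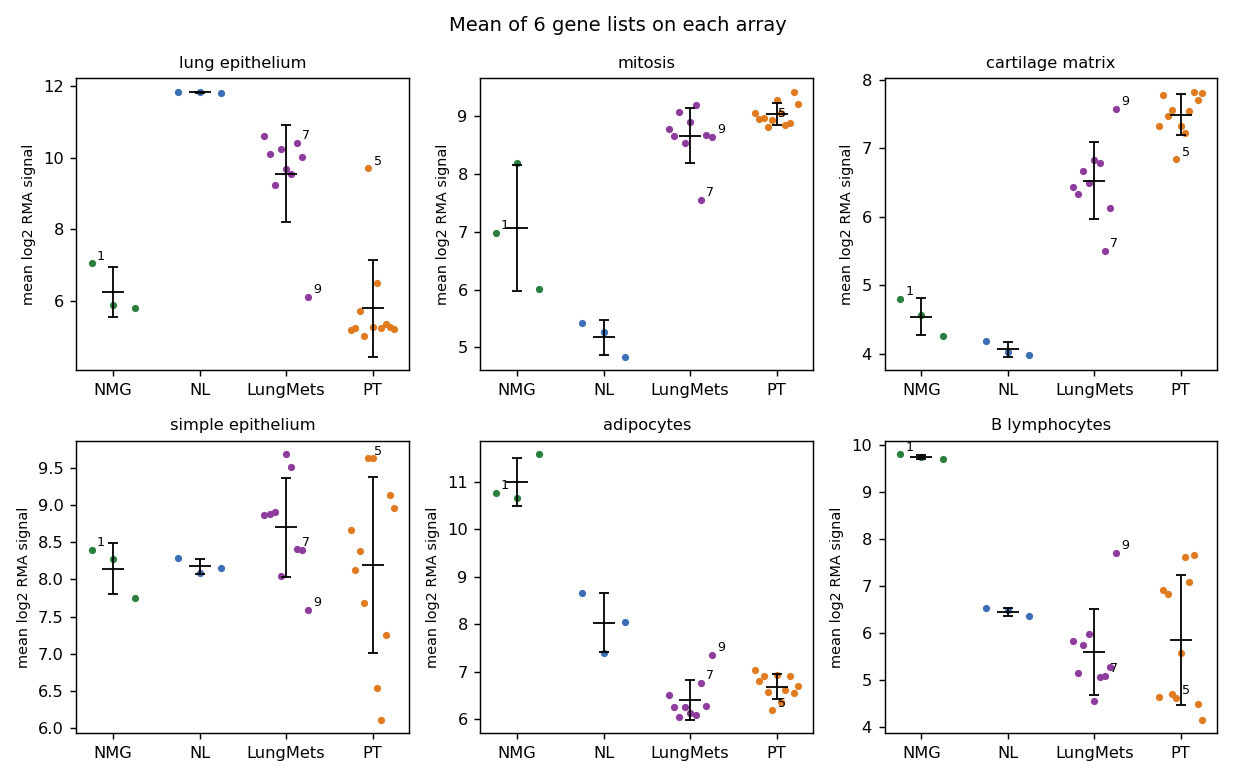
Mean log2 RMA signal (vertical) of 6 gene lists on each array of NMG (3), NL (3), LungMets (9) and PT (11), with the group mean and SD as bars. Small numerals mark LungMets replicates 7 and 9, PT replicate 5 and NMG replicate 1. LungMets replicate 9 lies at 6.11 for lung epithelium and 7.71 for B lymphocytes, PT replicate 5 at 9.70 for lung epithelium, and LungMets replicate 7 at 7.55 for mitosis.

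The study itself named 14 genes of stem cells and of epithelial-mesenchymal transition. That list was chosen on these samples, so its counts are not independent evidence. Of its members 3 rose and 3 fell, beside 5.36% called higher and 7.95% called lower over all genes. The median was 0.20 log2 units. *Sox2*, a pluripotency factor also active in airway epithelium and high in NL, rose by 2.58 ± 0.45 (SE, adjusted p = 5.98e-05, limma), the receptor tyrosine kinase *Kit* by 2.42 and the telomerase gene *Tert* by 2.19 log2 units. *Kit* read 9.27, 8.30 and 8.24 in NMG and 10.23 to 11.81 in LungMets, above NL at 9.59 to 10.04, so the groups did not overlap. *Sox2* lay below NL on average, at 5.52 against 6.99, while PT averaged 4.57 and the monolayer read 5.84. *Gata3*, *Zeb2* (2.12) and *Eomes* (1.94) fell, and *Snai1* and *Cdh2* differed by 0.42 and 0.89 without a call.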

How the data were processed

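Whole tissue RNA, extracted with TRIzol, was labelled with a 3' IVT kit and read on Affymetrix mouse expression arrays, per the labels and the study's methods. The authors deposited log2 values of 45101 probe sets, made with RMA in Partek, and a version of RMA is not given in the sources used here. They were not normalized again, and the medians of the 26 tissue arrays lay from 5.04 to 5.18 log2 units. The number of arrays limits the precision.

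Of these probe sets, 34958 list 1 gene, 932 several and 9211 none. After 13 control sets were left out, 34945 stood for 18193 genes, and a gene with several was read from the one whose mean over these 26 arrays was highest. The reference held the gene identifiers of 34741 and changed no symbol.

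Groups came from the labels. A model with 1 mean per group (PT, LungMets, NMG, NL) was fitted to the tissue arrays in limma 3.58.1 (R 4.3.3) by lmFit, followed by eBayes. Tests were two-sided, with Benjamini-Hochberg adjustment over all genes. The fit was tested on simulated data. Figures were drawn with Python 3.11.15 and matplotlib 3.10.9.

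The comparison and the 25 gene lists were chosen with earlier results of these data known. Genes were named by a rule: the 10 largest rises and falls among called genes not high in NL, the 6 largest rises among those high in NL, the 10 with the largest excess over both normal tissues, up to 4 called members per list, and a list's defining markers where not called. Other list members were named to account for counts, after their values were seen. Promoters are from the RefSeq table, which held 20 of the 24 mitosis genes. Alternatives were the mean of a gene's probe sets, a filter on low values, other normalizations, fits of 2 groups, array weights, date and replicate blocks, the methods' analysis of variance, no fold threshold, single dates, other definitions of high in NL and leaving out arrays. Leaving out together both arrays that went against their labels was chosen after seeing the data. The cell line arrays entered no fit.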

Additional observations from a re-analysis of the deposited data

Results flagged for a closer look

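Among 120 values tested over the 9 LungMets arrays, 31 had 1 array far from the other 8 by Dixon's criterion. For a single value chance gives about 1 in 20. The values share arrays, and list means hold genes that were also tested singly, so the 31 cannot be set against that rate. Each of the 31 was LungMets replicate 9 or replicate 7.

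LungMets replicate 9 was the high array for genes of the normal gland. It read 8.62 log2 units for *Adipoq*, 8.04 for *Thrsp*, 5.59 for *Cidec*, 9.90 for *Glycam1*, 8.07 for *Retn*, 5.83 for *Ephx2*, 6.37 for *Trp63*, 7.82 for *Krt5*, 10.20 for *Lum*, 9.40 for *Ms4a1* and 8.89 for *Fcmr*, and had a mean of 7.71 over the B lymphocyte list. It was the low array for genes of lung and for *Actc1*, a cardiac muscle gene that was high in NL. It read 5.53 for *Sftpa1*, 9.19 for *Scgb1a1*, 6.63 for *Scgb3a2*, 8.49 for *Sftpc*, 5.85 for *Actc1* and 4.02 for *Dynlrb2*, with means of 6.11 over the lung epithelium list and 4.36 over the ciliated cell list.

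LungMets replicate 7 was the low array for genes of cell growth. It read 7.51 for *Rfc3*, 6.45 for *Mcm10*, 8.79 for *Mcm6*, 7.44 for *Bub1*, 10.69 for *Cdc20* and 9.40 for *Dkc1*, and its list means were 7.81 for DNA replication, 7.55 for mitosis and 8.86 for ribosome biogenesis. It was the high array for neutrophil genes, with 7.54 for *Ngp* and a mean of 8.21 over the list.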

How the results depend on the processing

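The 6 counts of calls stayed within 1.5 times their value under each alternative except a filter on low values and the removal of the fold threshold, both of which change what can be called by construction. With only genes above the median mean, 1374 genes were called, 712 of them lower, and 253 were lower than both normal tissues. Without a fold threshold 7465 were called, 4202 higher and 3263 lower, with 3480 higher and not high in NL, 2451 above both and 1606 below both. Higher calls were 40.3% of calls, 48.2% with the filter and 56.3% without the fold threshold. Leaving out 1 array at a time gave 2072 to 2540 calls, 765 to 1046 higher, 1307 to 1494 lower, 409 to 661 higher and not high in NL, 323 to 544 above both and 404 to 508 below both, with the low end without NMG replicate 3 (for genes below both, equally without NL replicate 1) and the high end without LungMets replicate 7. Other definitions of high in NL gave 492 to 714 rising genes set apart from lung. Replicate numbers did not pair the arrays of LungMets and NMG (correlations of deviations 0.0475, -0.0536 and -0.308), and with the replicate block 2711 genes were called, 2333 of them shared. Date as a random block gave 2504. Of 95 named genes, 69 kept their call in every alternative that tested them, 26 lost it in at least 1 and none reversed. In the filtered set fewer members of a list were tested, so 15 adipocyte, 7 B lymphocyte and 3 luminal genes were called lower. Low signal limits the size of falls, as 451 of the genes that fell had a LungMets mean under every tissue array's median.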

Other observations

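By chromosome, the share of genes that rose without being high in NL ran from 1.24% on chromosome 15 to 6.16% on chromosome X (38 of 617 genes). The share of genes that fell ran from 5.66% on chromosome 18 to 12.1% on chromosome 1. These shares are a description and were not tested.

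The 21 genes that were high in NL and yet fell below NMG in LungMets were led by *Npr3*, a clearance receptor for natriuretic peptides, *Tceal1* and *Gsta3*, a glutathione transferase. *Npr3* averaged 7.96 in NMG, 9.27 in NL, 6.15 in LungMets and 4.16 in PT, and *Gsta3* 8.48, 9.55, 6.71 and 3.98. For both the LungMets mean lay between PT and NMG.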
